A study of Mus musculus with 16 samples.

Results

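The cells described here are a cluster of muscle stem cells (MuSCs) that had been cultured for 18 h and carried transcripts of Pax7 and Cd34. The cluster was chosen by measured values. Of the 4 clusters in the authors' cell table, 2 hold mostly cultured, activated cells, and the cluster selected on Pax7 is the one of these in which Pax7 took the larger share of all unique molecular identifiers (UMIs). It held 5258 of 21555 cells (24.4%), which were 5257 of the 10729 activated cells (49.0%) and 1 quiescent cell. Its cells together gave Pax7 at 50.9 CPM (UMIs per 1000000 UMIs), against 16.6 in the other activated cluster of 5467 cells and 42.3 and 151 in the quiescent clusters of 9317 and 1513 cells. Since the clusters were made from the expression of these cells, the differences between both activated clusters are given as a description, with no test.

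The cells came from H2B-GFP+/-;rtTA+/- mice, in which doxycycline, given while the embryos developed, loaded nuclei with a green histone. LRCs are MuSCs that kept this label and nonLRCs are MuSCs that diluted it by dividing. All groups shared this genotype and treatment, and MuSCs were sorted as VCAM+ and α7 integrin+ cells that lacked CD31, CD45 and Sca1. There were 2 young (3 months) and 2 aged (20 months) mice, and droplet-based scRNA-seq was run on freshly sorted (quiescent) cells and on cells after 18 h in horse serum medium on a coat of extracellular matrix (activated). The activated samples were young LRCs, young nonLRCs, aged LRCs and aged nonLRCs, with 2 libraries each, called a and b. The cell table names no mouse, so the library was the replicate. The letters a and b give the order of the libraries of a condition, and what else they may mark is not known. Several values given below differed in the same direction between a and b in every condition. The main fits within the cluster left the letter out. Within an age the same 2 mice gave the LRC and the nonLRC libraries. The p-values below therefore measure the spread between libraries, which may be partly technical.

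Pax7 is the transcription factor that marks MuSCs and is needed to maintain them, and Cd34 is a surface sialomucin of quiescent MuSCs. Id proteins, such as Id1 and Id3, are induced by BMP signals and bind E proteins, which keeps these from pairing with Myod1 on DNA. When MuSCs leave quiescence they grow, raise Myod1 and move toward their first division, while Atf4, a factor translated when amino acids are short or proteins misfold, drives genes of amino acid synthesis and import and of stress. Cholesterol is made from acetyl units by the mevalonate pathway, whose enzymes rise together under the factor Srebf2.

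The genes that set the cluster farthest below the other activated cluster included many of the amino acid response, and several of their promoters held the same short motif. The motif TGATGNAA, searched on both strands, spells the C/EBP-ATF response element through which Atf4 acts. In RefSeq promoters of GRCm38.p6, taken from 250 bases before to 50 bases after a start, it was found for 10 of the 24 matched genes of the 26 in the list (41.7%), against 3.97% of all 32851 promoters and 4.51% of the 27025 genes they belong to. The list is one of genes of the Atf4 response, so a high share with an Atf4 motif follows in part from that choice. No share was taken over the genes low in the cluster. The sequences below show the motif in capitals with 10 bases on each side, on the strand given, and are those of 5 genes of the list that were lower in the cluster and of Slc7a11, its exception. A match is a description of the letters and not a bound site.
Nupr1, chr7:126625563-126625590, plus strand: aagccctgtcTGATGCAAtctggccctt
Chac1, chr2:119351039-119351066, minus strand: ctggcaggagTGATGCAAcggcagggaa
Atf3, chr1:191183426-191183453, plus strand: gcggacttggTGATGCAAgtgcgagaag
Asns, chr6:7693215-7693242, minus strand: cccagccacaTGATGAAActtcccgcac
Trib3, chr2:152344029-152344056, plus strand: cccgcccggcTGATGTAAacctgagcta
Slc7a11, chr3:50443662-50443689, minus strand: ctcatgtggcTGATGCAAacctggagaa
Nupr1, Chac1, Atf3 and Slc7a11 share the 8 letters of the motif, while Asns and Trib3 each differ in its free position. For the sterol regulatory element searched as TCACNCCAC, 1 of 15 matched genes of the 23 in the cholesterol list held it, against 1.24% of all promoters, and that gene was Hmgcs1, at chr13:119690204-119690232 on the plus strand.
Hmgcs1: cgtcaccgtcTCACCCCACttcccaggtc

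The depth of the cluster was high. Its cells had a median of 10795 UMIs, against 6767 in the other activated cluster, and the cluster held between 823222 and 12881052 UMIs per library. The median number of genes per cell, as the mean of 8 libraries, was 3045 against 2119, and the median share of mitochondrial UMIs was 1.39% against 1.01%. Levels are given below as CPM of UMIs summed over the cells of a library, which are shares of all UMIs. A log2 difference is the mean over 8 libraries after adding 1 CPM. Shares of cells were also taken after each cell was thinned to 2000 UMIs, which left out 37 cells of the cluster and 93 of the other.

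Several libraries stood apart. Both young nonLRC libraries lay outside the range of the other 6 for 2038 of 5034 genes (40.5%) of at least 20 CPM in the cluster, and for 25.8% of genes in the other activated cluster. The same share was 5.19% for young nonLRC libraries of quiescent cells. In the cluster it was 20.3% for aged LRCs, 3.79% for aged nonLRCs and 3.71% for young LRCs. Cells of the cluster in young nonLRC libraries were also the shallowest, with medians of 8591 and 9514 UMIs against 10891 to 13204 in the other libraries. The aged LRC libraries were the smallest, with 66 and 226 cells in the cluster. In all, 134 cells of the cluster carried a barcode that also occurred in another library.

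The label of the cells was checked against markers of MuSCs. Myod1, the myogenic determination factor, was at 1109 CPM ± 134 (SD, n = 8). Des, the muscle intermediate filament, was at 191 ± 25.5 CPM, Cdh15, M-cadherin, at 105 CPM and Vcam1, used in the sort, at 71.2 ± 13.2 CPM. Chodl, abundant in quiescent MuSCs at 682 CPM, was at 1.47 ± 0.69 CPM in the cluster, and Myog, which drives differentiation, was at 0.02 ± 0.05 CPM. Markers of the myogenic lineage were thus present, with Chodl near 0.

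Markers of other cells of muscle were summed by list, and all but those of mural cells gave less than Pax7. The summed level of 8 endothelial genes was 6.23 CPM (2.35 to 12.2 over the libraries), with Tek as the most abundant at 4.89 CPM and Cdh5 at 0. That of 8 fibro-adipogenic genes was 21.5 CPM (14.9 to 27.2), led by Gsn at 12.8 CPM, with Lum and Ly6a at 0. Hematopoietic genes summed to 3.07 CPM (1.36 to 4.86), led by Cd68, with Tyrobp and C1qa at 0. Glial genes summed to 6.13 CPM (3.34 to 15.8), myofiber genes to 2.51 CPM (0 to 7.32) and red cell genes to 1.01 CPM (0 to 3.93). Mural genes summed to 56.3 CPM (15.9 to 103), against 4.75 CPM in the other activated cluster. Acta2 gave 54.8 CPM of this sum, and Myh11, which defines smooth muscle, was at 0; the part of mural cells in the level of Acta2 was not tested. The cluster held 55 cells with over 4500 genes, next to the authors' limit of 5000, and no doublet caller was run.

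**Figure D1:**
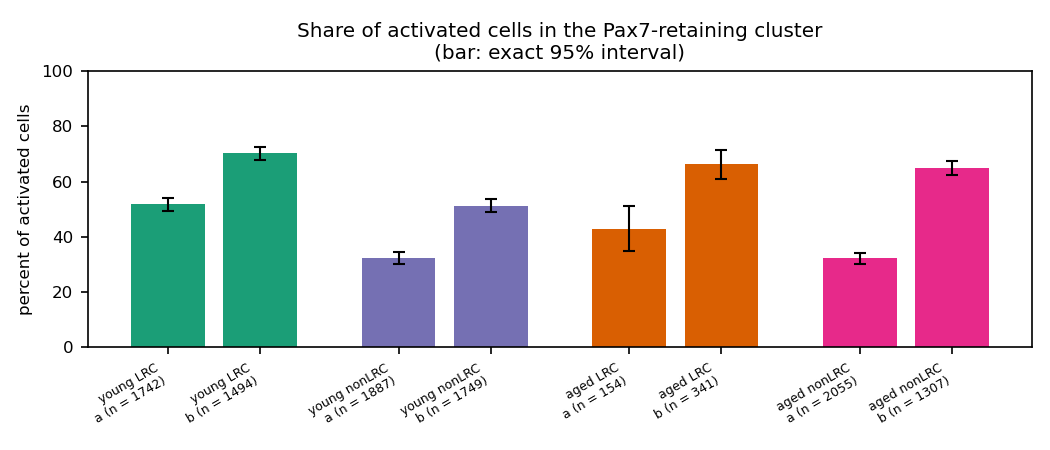
Share of the activated cells of each library that fell in the cluster, in percent, with exact 95% binomial intervals that cover counting error only. Library b lies above library a in each of the 4 conditions, and the libraries run from 32.1% to 70.3%.

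The share of activated cells in the cluster differed between the libraries of each condition. Among LRCs, young libraries a and b held 51.7% (exact 95% interval 49.3 to 54.0) and 70.3% (68.0 to 72.7), and aged libraries 42.9% (34.9 to 51.1) and 66.3% (61.0 to 71.3). Among nonLRCs, young libraries held 32.3% (30.2 to 34.5) and 51.3% (48.9 to 53.7), and aged libraries 32.1% (30.1 to 34.1) and 64.9% (62.2 to 67.5). Library b was above library a in 4 of 4 conditions, with a mean of 63.2% against 39.7%. The mean was 57.8% ± 12.8 in LRCs and 45.1% ± 15.9 in nonLRCs (SD, n = 4), and within an age and a letter the LRC library was the higher in 4 of 4 pairs, although the letters name no mouse.

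Pax7 chose the cluster, so its values describe the choice, and Cd34 took no part in the rule beyond the clustering itself. Pax7, on chr4:139737062-139833528 (minus strand, GRCm38), was at 60.2 and 41.4 CPM in young LRCs, 41.8 and 61.0 CPM in young nonLRCs, 43.7 and 43.3 CPM in aged LRCs and 63.4 and 43.6 CPM in aged nonLRCs. In the other activated cluster it was between 8.60 and 20.6 CPM, and no library of one cluster reached the other. Pax7 in the cluster was close to its level in quiescent cells, 57.2 ± 8.37 CPM, and both ranges overlapped. Cd34, on chr1:194938819-194961279 (plus strand), was at 39.5 and 50.8 CPM in young LRCs, 22.8 and 35.4 CPM in young nonLRCs, 55.9 and 56.4 CPM in aged LRCs and 39.9 and 53.8 CPM in aged nonLRCs. The young nonLRC libraries were the lowest, all 8 were above the 6.11 to 19.1 CPM of the other activated cluster, and all were below the quiescent level of 125 CPM. Cd34 thus lay between the other activated cluster and quiescent cells, whereas Pax7 overlapped quiescent cells.

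Id3, on chr4:136143497-136145755 (plus strand), was between 311 and 463 CPM in the cluster and between 145 and 267 CPM in the other activated cluster, against 915 CPM in quiescent cells. Id1, on chr2:152736251-152737410 (plus strand), was at 116 ± 24.4 CPM against 46.7 ± 8.36 CPM, a log2 difference of 1.29 ± 0.42, and at 99.9 CPM in quiescent cells. Id2, another Id protein, was at 208 ± 56.8 CPM against 129 ± 20.5 CPM and was higher in 7 of 8 libraries, with only aged LRC library a lower. All libraries of the cluster were thus above quiescent cells for Id2 (63.8 CPM there) and below them for Id3, and the ranges overlapped for Id1. Spry1, an inhibitor of FGF signalling found in quiescent MuSCs, differed by 0.59 on the log2 scale but by 0.21 after thinning, at 11.6 and 7.41 CPM. Myf5, a myogenic factor, was at 12.8 and 16.2 CPM, and Myod1 was lower in the cluster in 8 of 8 libraries (1109 against 1586 CPM, log2 difference -0.52 ± 0.14). The share of thinned cells with a Myod1 UMI was similar, at 79.9% ± 6.21 in the cluster and 81.4% ± 5.05 in the other activated cluster.

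**Figure D2:**
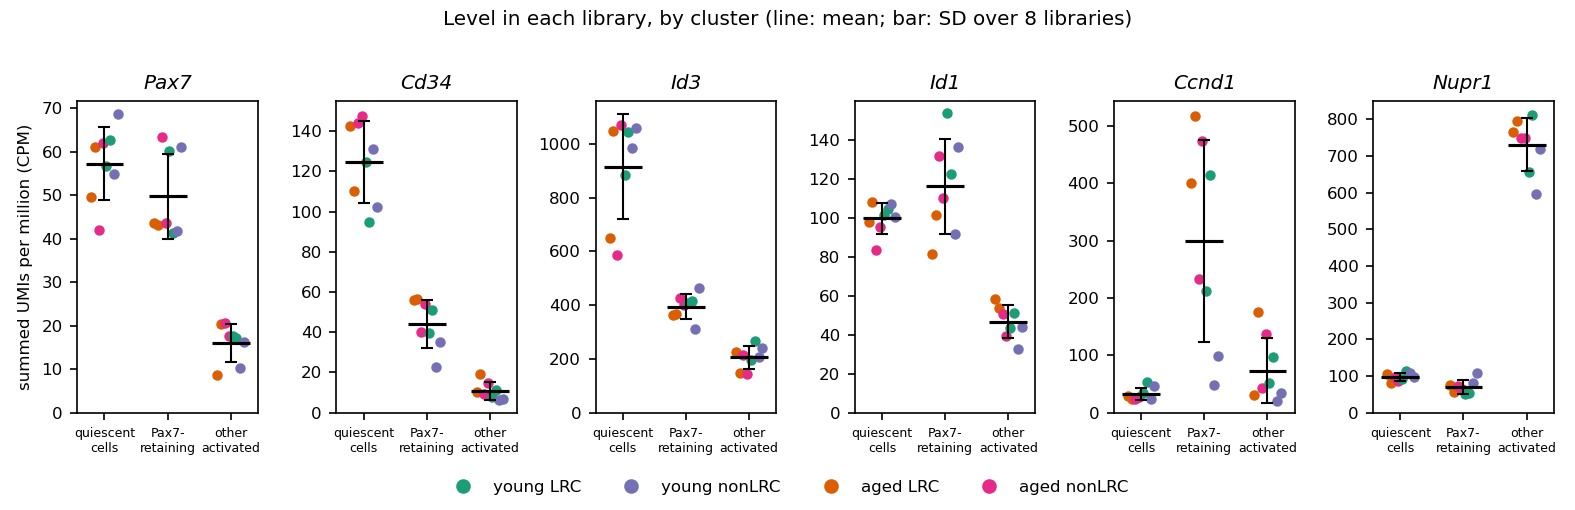
Levels in CPM of Pax7, Cd34, Id3, Id1, Ccnd1 and Nupr1 in each library of quiescent cells, of the cluster and of the other activated cluster, with the mean and SD over 8 libraries. Pax7 in the cluster overlaps quiescent cells, Cd34 and Id3 lie between quiescent cells and the other cluster, Ccnd1 spreads widely in the cluster, where young nonLRCs are lowest, and Nupr1 is high only in the other activated cluster among the 3 sets of cells drawn.

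Most cells of the cluster had no Pax7 UMI. Before thinning, 61.2% of its cells had 0, 25.5% had 1 and 9.17% had 2 Pax7 UMIs. At 2000 UMIs per cell Pax7 was seen in 9.26% ± 1.55 of cells, against 3.04% ± 0.92 in the other activated cluster and 10.3% ± 1.30 in quiescent cells (unthinned 38.6%, 9.42% and 15.2%). Among 363 cells outside the cell table that carried markers of another cell type, with a median of 2464 UMIs, 0 had a Pax7 UMI, which allows a share of up to 0.826%. Nearly all of these outside cells of endothelial, fibro-adipogenic and glial type came from quiescent libraries (5, 5 and 4 from activated ones), so the background in activated libraries was not bounded at this level. Cd34 was seen in 6.81% ± 2.42 of thinned cells against 1.69% ± 1.45, and Id3 in 43.4% ± 2.87 against 24.9% ± 2.46. The outside cells had Cd34 in 24.8% and Id3 in 59.2%, so Cd34 and Id3 UMIs were also found in other cell types.

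By these counts Cd34 was about as frequent in cells with Pax7 as in cells without. At 2000 UMIs, Cd34 was seen in 6.32% ± 3.86 of the cells with Pax7 and in 6.82% ± 2.44 of those without, and it was higher in cells with Pax7 in 3 of 8 libraries. At 4000 UMIs the shares were 12.9% ± 2.01 and 13.2% ± 4.04, and Cd34 was higher in cells with Pax7 in 5 of 8 libraries. At 2000 UMIs, Id3 was seen in 48.9% ± 5.40 of cells with Pax7 and 42.8% ± 3.16 of those without, and was higher with Pax7 in 6 of 8 libraries. Id1 was higher with Pax7 in 5 of 8 libraries at 2000 UMIs and in 7 of 8 at 4000. Its shares at 4000 UMIs were 34.7% ± 10.1 and 25.6% ± 5.51. Ccnd1 and Myod1 were also higher with Pax7 in 6 of 8 libraries at 2000 UMIs. Each library held only 5 to 102 cells with Pax7 at 2000 UMIs and 8 to 168 at 4000 UMIs.

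Both activated clusters were then set side by side over all genes. Of 4841 genes of at least 20 CPM in the mean of both activated clusters, 1803 (37.2%) were higher in the cluster in 8 of 8 libraries and 1270 (26.2%) were lower in 8 of 8. Because this filter takes the mean, a gene can pass through the cluster in which it is high, also in the lists below. Of 22 genes of the stem cell and quiescence list, 11 passed the filter on level, and 5 were higher and 2 lower in all 8 libraries. Of the 16 genes of the Notch pathway, which holds MuSCs quiescent, 3 passed and 0 moved the same way in all libraries; Hes1, its target, was at 25.5 and 30.0 CPM. Heyl and Calcr, both marks of quiescent MuSCs, were at 3.20 and 0.33 CPM in the cluster against 43.2 and 33.1 CPM in quiescent cells.

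The genes with the highest ratio to the other activated cluster included Acta2 and Sparc. Acta2, smooth muscle actin, was at 70.4 and 102 CPM in young LRCs, 13.9 and 55.6 CPM in young nonLRCs, 42.5 and 61.4 CPM in aged LRCs and 21.4 and 70.7 CPM in aged nonLRCs. In the other activated cluster it was between 0 and 4.36 CPM, and library b was above library a in every condition in the cluster. Sparc, a matrix protein, was at 104 ± 26.2 CPM against 14.2 ± 6.47 CPM (log2 difference 2.91 ± 0.73). S100a6, a calcium-binding protein, differed by 2.43 ± 0.34. Dbi, which binds acyl-CoA, differed by 2.63 ± 0.27 and Tspo, an outer mitochondrial membrane protein, by 2.40 ± 0.43. Nfic, a transcription factor, differed by 2.54 ± 0.23, Hmgn2, a nucleosome-binding protein, by 2.28 ± 0.20, Gsta4, a glutathione transferase, by 2.34 ± 0.50 and Dapk2, a kinase, by 2.41 ± 0.27. All of these were higher in 8 of 8 libraries. Their levels in quiescent cells differed. Acta2 was between 73.3 and 153 CPM there, overlapping the cluster, Sparc between 275 and 540 CPM and S100a6 between 241 and 515 CPM. Dapk2, between 0.76 and 3.75 CPM, and Gsta4, between 3.27 and 10.1 CPM, were lower in quiescent cells than in every library of the cluster. Among cells of 6000 to 12000 UMIs the differences were smaller for Acta2 (2.85), S100a6 (1.65) and Dapk2 (1.58), and Gsta4 was higher in 7 of 8 libraries. With 5 CPM added in place of 1, Acta2 differed by 2.83.

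The genes with the lowest ratio included 4 chemokines. Cxcl3, Cxcl2 and Cxcl1, chemokines that draw neutrophils, differed by -4.06 ± 0.42, -3.90 ± 0.77 and -3.30 ± 0.87 on the log2 scale, and Ccl5, another chemokine, by -3.65 ± 0.98. Cxcl1 was between 22.1 and 89.8 CPM in the cluster, highest in young nonLRC library a, and between 89.4 and 1267 CPM in the other activated cluster. Ndrg1, induced by hypoxia and stress, differed by -3.47 ± 0.52, Pim1, a survival kinase, by -2.82 ± 0.52 and Rnd1, a small GTPase, by -2.53 ± 0.21. Gadd45a, a growth arrest gene, differed by -2.68 ± 0.67, Ppp1r15a, which restores translation after stress, by -2.58 ± 0.30 and Cth, which makes cysteine, by -2.73 ± 0.97. Hmox1, heme oxygenase, was at 768 ± 185 CPM against 3475 ± 433 CPM. Quiescent cells had Cxcl1 between 3534 and 8666 CPM and Cxcl2 between 310 and 1852 CPM, above both activated clusters. They had Pim1 between 730 and 1003 CPM and Ppp1r15a between 729 and 1022 CPM. By contrast, Ccl5 was between 0.72 and 6.34 CPM and Cth between 0.72 and 2.54 CPM in quiescent cells. Among cells of 6000 to 12000 UMIs Pim1 differed by -1.93 and Ccl5 by -2.76, and with 5 CPM added in place of 1 Ccl5 differed by -2.44, Cxcl3 by -3.20 and Cxcl2 by -3.15.

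**Figure D3:**
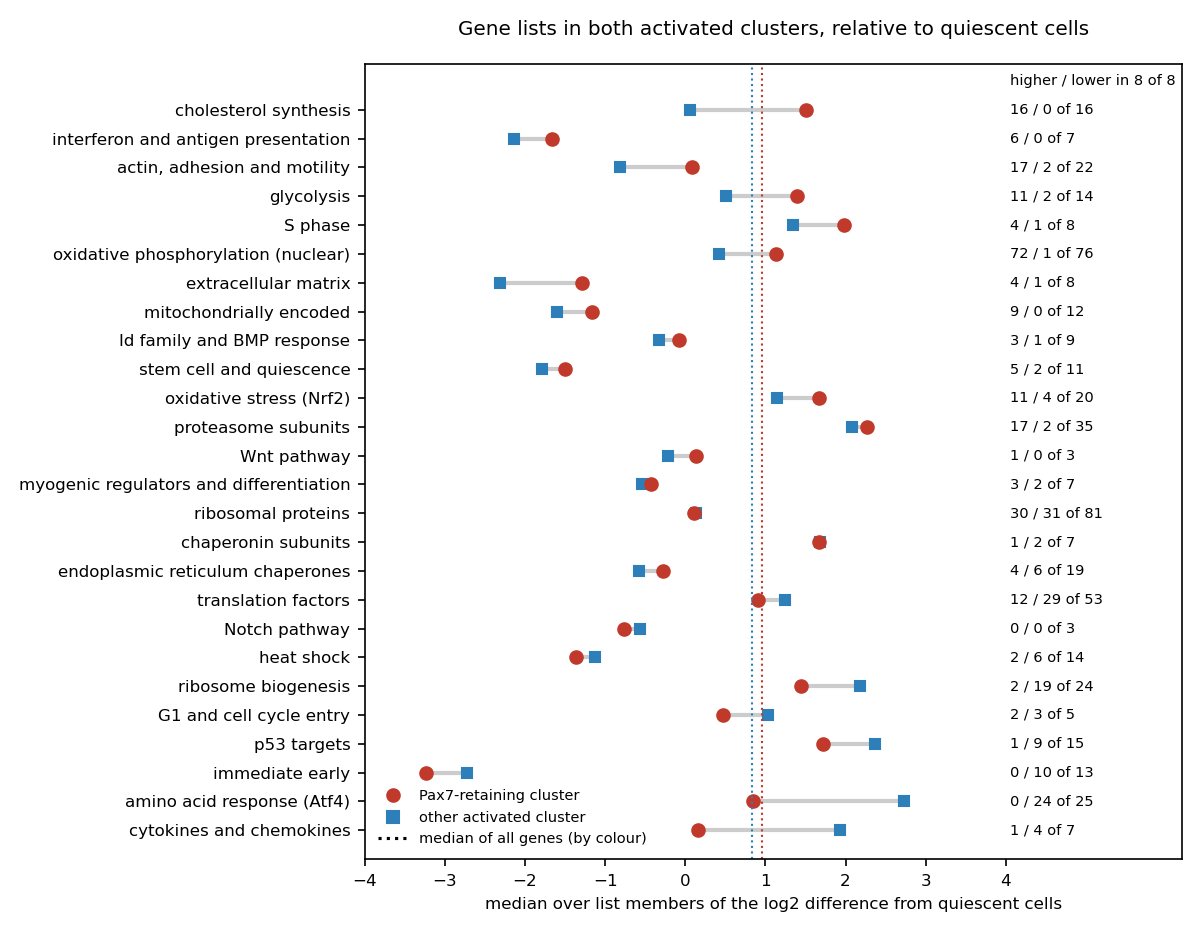
Median over the members of each gene list of the log2 difference from quiescent cells, for the cluster and the other activated cluster, with the median of all genes as dotted lines and the number of members higher and lower in 8 of 8 libraries at the right. The amino acid response and cholesterol synthesis separate the clusters in opposite directions, at 0.85 against 2.73 and at 1.51 against 0.06.

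Nearly the whole amino acid response list was lower in the cluster. Of its 26 genes, 25 passed the filter on level, and 24 were lower in the cluster in 8 of 8 libraries, with 0 higher. Fgf21, between 1.91 and 7.29 CPM in the cluster, passed only through the other activated cluster, as did Chac1 by its mean given below. The filter thus partly set this count and the median. The median log2 difference was -1.85, against 0.08 over all genes. Nupr1, a stress-induced chromatin protein, was at 51.7 and 54.8 CPM in young LRCs, 80.5 and 108 CPM in young nonLRCs, 75.3 and 56.0 CPM in aged LRCs and 72.0 and 63.6 CPM in aged nonLRCs. In the other activated cluster it was between 595 and 811 CPM, and in quiescent cells at 97.2 CPM, so the cluster did not exceed the quiescent mean in 7 of 8 libraries. Chac1, which degrades glutathione, was at 18.8 ± 9.41 CPM against 178 ± 26.9 CPM. Asns, asparagine synthetase, was at 131 ± 45.7 CPM against 490 ± 79.8 CPM, and at 1.14 CPM in quiescent cells. Atf3, a stress-induced factor, differed by -3.04 and Trib3, a pseudokinase, by -2.28 on the log2 scale. Psat1, of serine synthesis, was at 91.7 ± 18.5 CPM against 462 ± 38.7 CPM. Atf4 itself was at 384 ± 65.3 CPM against 1042 ± 102 CPM, and at 431 CPM in quiescent cells.

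The exception of the list was Slc7a11, the cystine importer, at 123 ± 87.4 CPM against 81.1 ± 18.3 CPM, which was higher in 4 of 8 libraries although its promoter holds the motif shown above. The 10 genes with the motif had a median log2 difference of -2.26 and the 14 matched genes without it one of -1.72, so that genes of both kinds were low. Relative to quiescent cells the median of the list was 0.85 in the cluster and 2.73 in the other activated cluster, against 0.96 and 0.83 for all genes.

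Cholesterol synthesis lay the other way. Of its 23 genes, 16 passed, and all 16 were higher in the cluster in 8 of 8 libraries, with a median log2 difference of 1.30. Mvd, of the mevalonate pathway, was between 1.72 and 10.4 CPM in the other activated cluster. It passed only through the cluster, as did Fdft1 by its mean given below. The filter thus partly set this count and this median. Fdps, which makes farnesyl diphosphate, was at 191 and 233 CPM in young LRCs, 183 and 219 CPM in young nonLRCs, 126 and 136 CPM in aged LRCs and 129 and 125 CPM in aged nonLRCs, against 9.57 to 52.6 CPM in the other activated cluster. All 4 aged libraries lay below all 4 young ones, and the log2 difference of Fdps was 2.47, or 1.88 among cells of 6000 to 12000 UMIs. Fdft1, squalene synthase, was at 68.5 ± 17.8 CPM against 13.2 ± 5.71 CPM, Sqle, squalene epoxidase, at 167 ± 26.7 CPM against 65.9 ± 8.32 CPM, and Hmgcs1, the synthase of the first steps, at 87.5 ± 14.7 CPM against 38.6 ± 5.28 CPM.

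Energy metabolism and the cytoskeleton were also higher. Of 85 nuclear genes of oxidative phosphorylation, 76 passed, 72 were higher and 1 lower in 8 of 8 libraries, with a median of 0.65. Of 13 genes of this pathway encoded in mitochondria, 12 passed and 9 were higher. Of 20 genes of glycolysis, 14 passed, 11 were higher and 2 lower, with a median of 0.89. Gapdh was at 1134 ± 129 CPM against 354 ± 50.4 CPM and Pkm, pyruvate kinase, at 1689 ± 149 CPM against 655 ± 80.8 CPM. Hk2, the hexokinase of the first step, went the other way, at 29.9 ± 3.48 CPM against 116 ± 20.7 CPM. Of 30 genes of actin, adhesion and motility, 22 passed, 17 were higher and 2 lower. Actb was at 2821 ± 352 CPM against 1552 ± 237 CPM.

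Ribosome biogenesis was lower in the cluster. Of 25 genes of ribosome biogenesis, 24 passed, 2 were higher and 19 lower in 8 of 8 libraries, with a median of -0.51. Ncl, nucleolin, was at 3281 ± 501 CPM against 5206 ± 619 CPM and Npm1, nucleophosmin, at 3272 ± 682 CPM against 4969 ± 514 CPM, and both were above quiescent cells. Myc, the growth regulator, was at 156 ± 18.9 CPM against 388 ± 48.1 CPM. Cdkn1a, the inhibitor p21, was at 763 ± 345 CPM against 2416 ± 468 CPM and was highest in the young nonLRC libraries, at 1511 and 956 CPM. Of 20 p53 targets, 15 passed, 1 was higher and 9 were lower.

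Ccnd1, cyclin D1, which starts the passage through G1, varied widely within the cluster. It was at 212 and 414 CPM in young LRCs, 49.0 and 98.0 CPM in young nonLRCs, 401 and 518 CPM in aged LRCs and 233 and 474 CPM in aged nonLRCs. Young nonLRCs were the lowest, and library b exceeded library a in every condition. In the same libraries of the other activated cluster it was lower, at 19.5 to 175 CPM, and quiescent cells had 32.8 CPM. Of 20 S phase genes 8 passed, 4 were higher and 1 lower, with Mcm2, a replication helicase subunit, at 36.0 ± 6.50 CPM against 9.49 ± 2.21 CPM. Mcm2 and Mcm6 were below 20 CPM in every library of the other activated cluster and passed only through the cluster. The filter thus partly set this count. Of 14 genes of G2 and M phase 0 passed.

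Most immediate early genes that passed were lower too. Of 24 immediate early genes 13 passed, and 10 were lower and 0 higher in the cluster, with a median of -0.83. Of 20 interferon and antigen presentation genes 7 passed, and 6 were higher and 0 lower, among them B2m at 131 ± 36.5 CPM against 108 ± 26.2 CPM. Of 20 cytokines and chemokines 7 passed, with 1 higher and 4 lower and a median of -2.02. Cxcl2, Cxcl3 and Ccl5 were below 20 CPM in every library of the cluster and passed only through the other activated cluster. The filter thus partly set this count and this median. Of 84 ribosomal proteins 81 passed, with 30 higher and 31 lower and a median of -0.0049. Of 39 proteasome subunits 35 passed, with 17 higher and 2 lower, and of 65 translation factors 53 passed, with 12 higher and 29 lower.

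**Figure D4:**
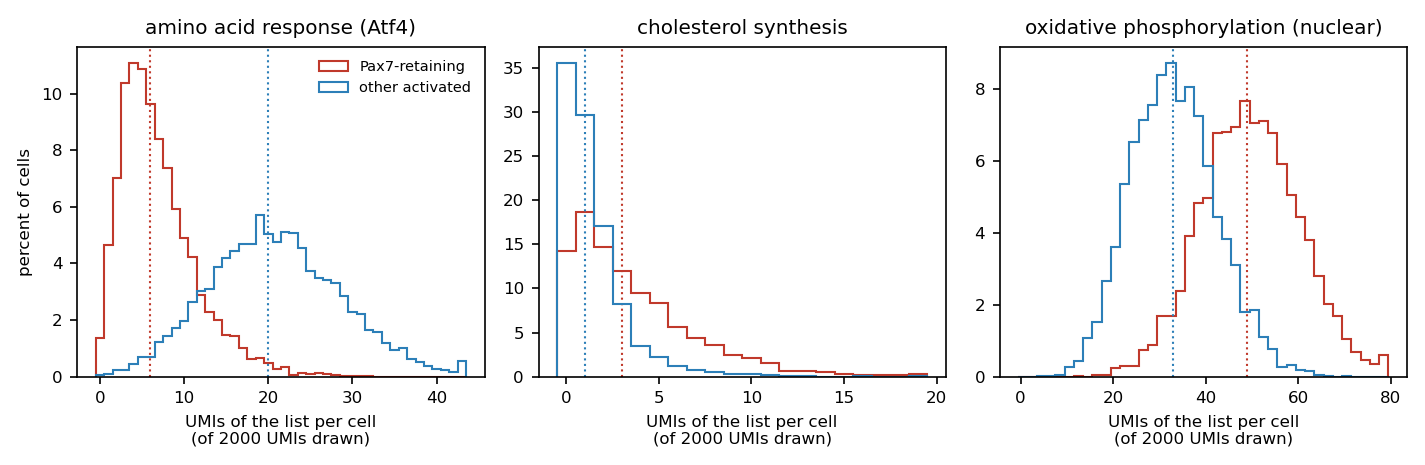
Distribution over cells of the UMIs of 3 gene lists among 2000 UMIs drawn per cell, in percent of the cells of each cluster, with the medians as dotted lines; the last bin collects all higher values. For the amino acid response the medians are 6 and 20, for cholesterol synthesis 3 and 1, and for nuclear oxidative phosphorylation 49 and 33.

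At equal depth the differences were shifts of most cells. Of 2000 UMIs drawn per cell, a median of 6 belonged to the amino acid response in the cluster (1 to 16 from the 5th to the 95th percentile) against 20 (8 to 34) in the other activated cluster. For glycolysis the medians were 14 (6 to 27) and 6 (1 to 17), and for actin, adhesion and motility 32 (14 to 59) and 18 (8 to 37). The ranges of the clusters overlapped in each of these lists. Nupr1 was seen in 13.2% ± 3.09 of thinned cells against 64.4% ± 5.40, and Ccnd1 in 28.3% ± 14.9 against 8.42% ± 6.06. Where only cells of 6000 to 12000 UMIs were compared, the log2 difference of Cd34 fell from 1.99 to 1.27 and that of Ccnd1 from 2.04 to 0.93, while Pax7 was at 1.71, Nupr1 at -3.08 and Chac1 at -4.02.

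The label contrast asked whether cells of the cluster differed by their history of division. No gene of 10783 was called between LRCs and nonLRCs by edgeR's quasi-likelihood test at a Benjamini-Hochberg adjusted p of 0.05 (0 called, 0%), with 2041 genes at an unadjusted p under 0.05 and 247 called by DESeq2. Pax7 differed by -0.10 (SE 0.17, adjusted p = 0.774) on the log2 scale, Cd34 by 0.49 (SE 0.17, adjusted p = 0.173) and Id3 by 0.01 (SE 0.11, adjusted p = 0.977). Ankrd1, a muscle ankyrin repeat protein, had an adjusted p of 0.0597 with a difference of 0.80 (SE 0.10). Among young cells alone 261 genes were called (2.42%, 162 higher in LRCs) and among aged cells 0 (0%, 482 at an unadjusted p under 0.05), in contrasts added after seeing the data. The interaction of label and age, which tests whether these differ, called 0 genes (0%), with 712 at an unadjusted p under 0.05 and 5 called by DESeq2. The label count was 421 without aged nonLRC library b, 44 without young LRC library a, 1 without aged nonLRC library a and 0 without each of the others. With the order of the libraries (a or b) as a block, added after seeing the data, 1301 genes were called for label, 217 for the interaction and 2419 for age. With no filter beyond 1 UMI and no block, edgeR called 969 genes for label and 140 for the interaction. In the other activated cluster the same test called 4 of 9551 genes (0.0419%).

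Between ages the cluster differed in 386 of 10783 genes (3.58%), of which 202 were higher and 184 lower in aged cells, by edgeR's test with LRCs weighted at 35% in young and 15% in aged mice. In the other activated cluster 98 of 9551 genes (1.03%) were called. The contrast within nonLRCs called 663 genes (6.15%) and that within LRCs 0 (0%, 823 at an unadjusted p under 0.05), and both were added after seeing the data. Of the 386 genes, 359 were also called within nonLRCs and 374 had the same sign in both label classes. Leaving out libraries moved the count to 1 without young nonLRC library a, 3 without aged nonLRC library b, 71 and 114 without aged LRC libraries b and a, 92 without young LRC library a, 246 without young nonLRC library b and 582 without aged nonLRC library a. Over all activated cells, with no clusters, 3 genes were called. The count was 131 in cells thinned to 2000 UMIs and 1404 with no filter beyond 1 UMI. It was 2419 with the order of the libraries as a block, added after seeing the data. The contrast within LRCs, with 0 calls, uses neither of the young nonLRC libraries that stood apart, but it rests on the aged LRC libraries, which also stood apart and held only 66 and 226 cells.

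**Figure D5:**
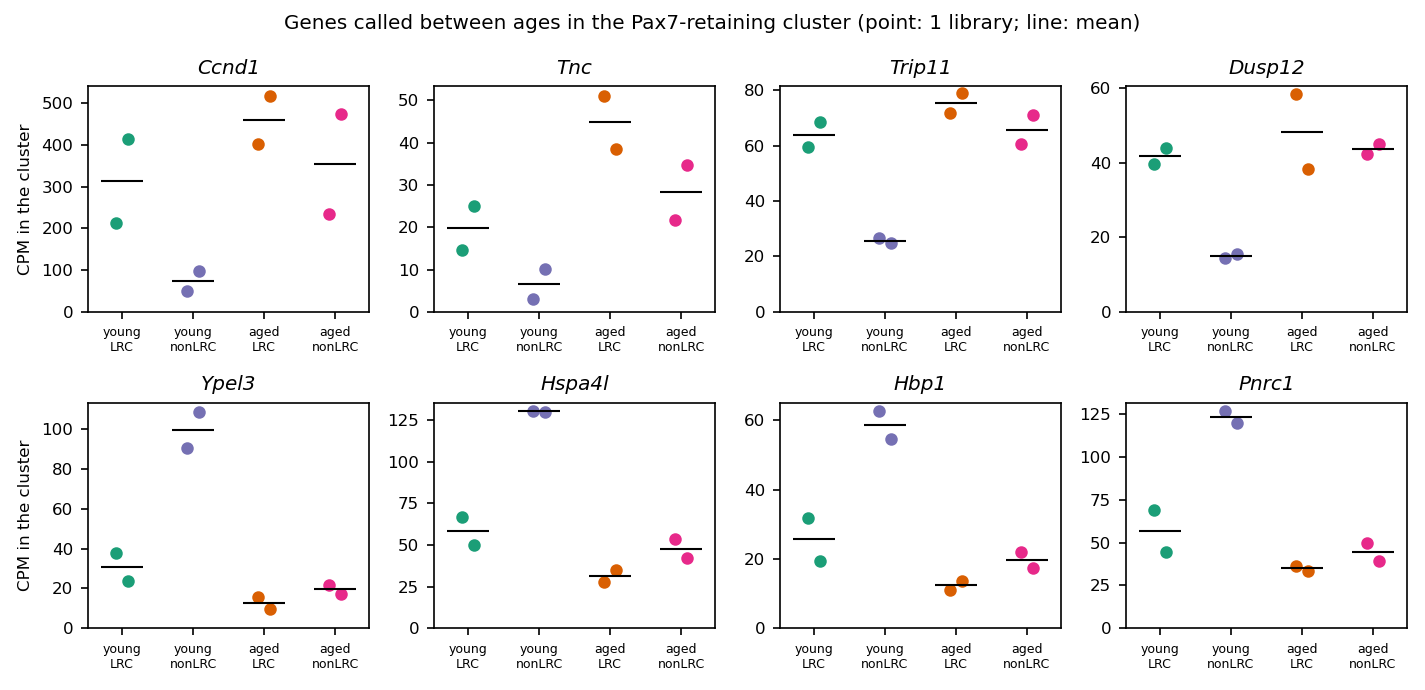
Levels in CPM in the cluster of 4 genes called higher (Ccnd1, Tnc, Trip11, Dusp12) and 4 called lower (Ypel3, Hspa4l, Hbp1, Pnrc1) in aged cells, with 1 point per library and the mean of each condition as a line. In all 8 genes the young nonLRC libraries lie at the far end, with Ypel3 at 90.6 and 108 CPM against 9.73 to 38.0 CPM in the other libraries.

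Among the genes higher in aged cells, Ccnd1 rose by 1.62 (SE 0.32, adjusted p = 0.034), although the ages overlapped, since young LRC library b with 414 CPM lay within the aged range. Trip11, a golgin, was at 59.5 and 68.4 CPM in young LRCs, 26.5 and 24.9 CPM in young nonLRCs, 71.7 and 78.8 CPM in aged LRCs and 60.5 and 71.0 CPM in aged nonLRCs, a rise of 0.96 (SE 0.11, adjusted p = 0.0114) with overlap between young LRCs and aged nonLRCs. Tnc, tenascin C of the matrix, rose by 1.60, Ptges2, a prostaglandin synthase, by 1.22, Dusp12, a phosphatase, by 1.07, Fam3c by 1.00, Ahnak, a large scaffold protein, by 0.94 and Coq3, of ubiquinone synthesis, by 0.91. Mt2 and Mt1, metallothioneins whose close copies can share reads, rose by 2.63 (SE 0.54) and 1.26 (SE 0.27). Leaving out 1 library moved Mt2 between 1.43 (without aged nonLRC library b) and 3.22 (without aged nonLRC library a), Mt1 between 0.80 and 1.59, Ccnd1 between 1.07 and 2.01, each lowest without aged nonLRC library b, and Tnc between 1.24 and 2.38, highest without young nonLRC library b. Mt2 ranged from 21.7 to 405 CPM in young and from 151 to 873 CPM in aged libraries, with library b above library a in every condition.

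Among the genes lower in aged cells, Ypel3, a growth-suppressing gene, fell by 1.84 (SE 0.19, adjusted p = 0.0106). It was at 38.0 and 23.5 CPM in young LRCs, 90.6 and 108 CPM in young nonLRCs, 15.8 and 9.73 CPM in aged LRCs and 21.8 and 17.4 CPM in aged nonLRCs, so that the ages did not overlap. Lower too, on the log2 scale, were Hbp1, a repressor that restrains the cell cycle (-1.21), Pnrc1, a nuclear receptor coactivator (-1.10), Hspa4l, a chaperone (-1.09), Impact, which restrains the kinase Gcn2 (-1.17), and Mettl23, a methyltransferase (-1.08). Meg3, an imprinted long noncoding RNA, fell by 1.57. Gstp1 (-1.78), Gm10020 (-1.40) and Gm10076 (-1.32) were lower, but these genes have near-identical copies and their counts are uncertain.

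By list, 6 of 24 tested ribosome biogenesis genes rose and 0 fell with age, among them Npm1 by 0.47, Ncl by 0.36 and Nop56, of the nucleolus, by 0.41. The share called over all genes was 3.58% in both directions together. Npm1, at 2323 and 2473 CPM, and Ncl, at 2514 and 2614 CPM, were lowest in the young nonLRC libraries that stood apart, and the contrast within LRCs called none of these genes. The median of that list was 0.20, against -0.0044 over all genes. Of 23 cholesterol genes 0 rose and 5 fell, among them Fdps (-0.65, SE 0.10, adjusted p = 0.0206) and Fdft1 (-0.60, SE 0.10, adjusted p = 0.0206). Of 26 genes of the amino acid response 2 rose, Atf4 by 0.39 (SE 0.07) and Atf5 by 0.67 (SE 0.14), and 5 fell, among them Asns (-0.66, SE 0.13). Thus the factor and the synthetase of the same list moved in opposite directions. Of 20 endoplasmic reticulum chaperones 0 rose and 3 fell. Pdia3, among those that fell, was highest in the young nonLRC libraries that stood apart, at 486 and 389 CPM. It was at 315 and 302 CPM in young LRCs and between 249 and 297 CPM in aged libraries. Pax7, on which the cluster was selected, and its markers Cd34 and Id3 were not called, with Pax7 at 0.04 (SE 0.18, adjusted p = 0.931), Cd34 at 0.53 (SE 0.18, adjusted p = 0.117) and Id3 at 0.07 (SE 0.12, adjusted p = 0.774).

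Whether the label contrast differed between both activated clusters was tested in 1 fit of both. It called 21 of 10772 genes (0.195%), of which 19 had a higher and 2 a lower LRC minus nonLRC difference in the cluster than in the other. This split was 11 and 3 with RLE size factors, 4 and 6 in cells thinned to 2000 UMIs and 14 and 12 with the authors' tree cut in place of these clusters. Of 13 tested cytokines and chemokines 4 were among the 19, Ccl2, Ccl7, Cxcl1 and Spp1. Spp1, osteopontin, had the term 1.79 (SE 0.28, adjusted p = 0.00377), which was 1.20 without aged LRC library a and 2.67 without aged LRC library b. It was between 22.5 and 88.0 CPM in the cluster with overlapping label classes, while in the other activated cluster it was between 32.6 and 219 CPM in LRCs and between 269 and 596 CPM in nonLRCs. Ccl2, which draws monocytes, had the term 2.33 (SE 0.35, adjusted p = 0.00312), with 7.76 to 66.8 CPM in LRCs and 2.13 to 26.6 CPM in nonLRCs of the cluster. In the cluster library b was above library a for Ccl2 in every condition. In the other activated cluster Ccl2 was low, between 1.72 and 13.7 CPM, with overlapping label classes. Of 30 actin and motility genes 3 were called, Tmsb4x, Tmsb10 and Ankrd1. Pcyt2, of phospholipid synthesis, had 1.08 (SE 0.22), and the 2 genes with a lower difference were Nupr1, -0.49 (SE 0.10), and Prdx5, a peroxiredoxin, -0.51 (SE 0.11). The count ran from 3 without aged LRC library b to 96 without aged nonLRC library b, and it was 9 without aged LRC library a, 69 and 13 without young LRC libraries a and b, and 39 and 54 without young nonLRC libraries a and b.

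The age contrast differed between both activated clusters in 14 of 10772 genes (0.13%), of which 3 had a higher and 11 a lower aged minus young difference in the cluster. Of 26 amino acid response genes 4 were among the 11, Asns, Psat1, Psph and Vldlr. Asns, for which the term was -0.58 (SE 0.10, adjusted p = 0.0156), was at 91.6 to 115 CPM in aged and 126 to 231 CPM in young libraries of the cluster, without overlap, and at 400 to 522 CPM in aged and 401 to 607 CPM in young libraries of the other cluster, with overlap. Gpx3, a secreted peroxidase, had -0.73 (SE 0.11, adjusted p = 0.0048), Zfp36l2, an RNA-binding protein, -0.76 (SE 0.13) and Pim1 -0.75 (SE 0.14). The term of Pim1 was -0.49, and not called, without young nonLRC library b and -0.99 without young nonLRC library a. Tnc had 1.03 (SE 0.20), Cxcl1 0.72 (SE 0.14) and Trip11 0.70 (SE 0.13). With LRCs and nonLRCs weighted equally 1 gene was called. The count ran from 9 without aged LRC library b to 60 without young nonLRC library b, and it was 45 without aged nonLRC library a, 56 without young LRC library b and 33 without young nonLRC library a.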

How the data were processed

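The deposited matrix holds counts, as UMIs of 27998 genes in 22699 cells. A second deposited table covers 21555 of these cells and gives their condition, the authors' cluster numbers and, as a fraction computed by the authors, the mitochondrial share of UMIs. The submitters' processing notes name bcl2fastq, Cell Ranger, Seurat and mm10. Per the paper's methods, the authors dropped cells with more than 10% of UMIs from mitochondria or more than 5000 genes, and contaminating clusters. Gm42418 and AY036118, which hold ribosomal RNA (0.128% of UMIs), were left out.

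The members and gene lists were chosen with earlier results of these data known. UMIs were summed per library and cluster, and the library was the replicate. Sums were tested with edgeR 4.0.16 (R 4.3.3, filterByExpr, TMM, quasi-likelihood F test, 4 residual degrees of freedom in the cluster, prior 6.46, common coefficient of variation 0.124). Contrasts between clusters took the library as a block in 1 fit of both clusters. Standard errors (SE) of log2 changes were the change over the square root of F. The test was also run on simulated data, with no outcome reported here. Named genes were Pax7, Cd34, Id3, Spry1, Myod1, Myf5, Id1, Id2 and Ccnd1; the 12 highest and 12 lowest ratios among genes of at least 50 CPM in either cluster with the same sign in 8 libraries; the 10 largest rises and falls called for age, and 3 for contrasts between clusters, at 20 CPM or more; and list members of highest level or called. Some genes that met this rule are not reported here. Promoters came from RefSeq (GRCm38.p6). Python 3.11.15, numpy 2.4.6, scipy 1.17.1 and pandas 2.3.3 were used, with DESeq2 1.42.0, other filters, depths, priors, weights, clusters and left-out libraries as alternatives. Intervals cover counting error only.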

Additional observations from a re-analysis of the deposited data

Results flagged for a closer look

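Outlying libraries were sought with Dixon's test for 8 libraries in 34 sets of values, among them log2 ratios of the cluster to the other activated cluster. Chance flags about 1 set in 20, and 4 were found. Myf5 in aged LRC library a had a ratio of 1.75, against -0.98 to -0.05 in the other 7 libraries. Sparc in aged LRC library b had 4.49, against 2.26 to 3.14. Hmgn2 in aged LRC library b had 2.70, against 2.02 to 2.33. Rnd1 in young LRC library b had -2.97, against -2.60 to -2.29.

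The label contrast differed between the clusters, by the tested term, for Ccl2 (2.33), Spp1 (1.79), Pcyt2 (1.08), Prdx5 (-0.51) and Nupr1 (-0.49). The age contrast differed for Tnc (1.03), Cxcl1 (0.72), Trip11 (0.70), Zfp36l2 (-0.76), Pim1 (-0.75) and Gpx3 (-0.73). These are log2 values from edgeR. The other called genes, some of them named in the Results, are not listed here.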

How the results depend on the processing

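The counts of genes higher in the cluster in every library and the share of cells in it moved by less than 1.5 times or 1 SD under every alternative run, and no gene value computed changed sign, but the split of the label calls between clusters turned from 19 higher and 2 lower to 4 and 6 in thinned cells. The counts of calls did move. With no filter beyond 1 UMI they were 969 for label, 1404 for age, 140 for the interaction, and 63 and 95 for the label and age contrasts between clusters. DESeq2 called 247 for label, 5 for the interaction and 11 and 4 between clusters. In cells thinned to 2000 UMIs age called 131 and label between clusters 10, over all activated cells age called 3, with equal weights age between clusters called 1, and with the authors' tree cut 23. Leaving out 1 library gave 0 to 421 for label, 1 to 582 for age, 0 to 1 for the interaction, 3 to 96 for label and 9 to 60 for age between clusters, with the lone library left in a condition assumed to vary like the others. No paired analysis was possible because no source used here ties the libraries of the cell table to the mice numbered in the sample titles, and the order a or b is no pairing by mouse. The order of the libraries (a or b) as a block, chosen after seeing the data, gave 1301 for label, 2419 for age and 217 for the interaction. The authors' coarser, finer and tree-cut clusters, and leaving out cells with shared barcodes, were also added after seeing the data. Of the values of named genes under the alternatives, 440 log2 changes stayed called and 122 lost the call, and 571 log2 ratios stayed within 1 SD and 23 did not. The cause of these changes was not tested. The aged LRC libraries held the fewest cells of the cluster, 66 and 226.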
